A study of Mus musculus with 8 samples.

Results

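The genes described here encode the replication-dependent histones of the mouse: the linker histone H1 and the core histones H2A, H2B, H3 and H4. They were chosen by symbol, as every gene in the count table named H1f1 to H1f6 or belonging to the H2ac, H2bc, H3c or H4c series. The rule took 63 of the 27179 genes in the table, 6 for H1, 17 for H2A, 16 for H2B, 12 for H3 and 12 for H4. RNA had been measured in embryonic cerebral cortex of 8 mouse embryos, 1 library per embryo, by stranded sequencing of polyadenylated RNA. The 4 control embryos were Taf8 +/+ and the 4 Taf8-deleted embryos were Taf8 -/lox, which is a null allele over a lox allele. The Taf8 protein belongs to TFIID, a general transcription factor that recognises core promoters and helps to load RNA polymerase II. The sources used here give no embryonic day, strain or Cre driver, and the labels name no treatment. The comparison asked whether histone RNA levels depended on the Taf8 genotype.

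Core histones form the protein core around which DNA is wound, and H1 binds the linker DNA between cores. Most of these genes lie in dense clusters, have no introns and are transcribed in S phase, when DNA is copied. Their main transcripts are not polyadenylated: they are cut just after a conserved stem-loop that is bound by the protein Slbp. Polyadenylated forms, which run past the stem-loop to a poly(A) signal, are known from differentiated cells and from a few of the genes. Poly(A) selection therefore sees only part of the RNA of these genes, and the values below are levels of that part.

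The stem-loop is shown because it separates the kinds of RNA that poly(A) selection can and cannot hold. It was searched in the GENCODE vM21 transcripts (mm10) on the transcript strand by the consensus of the histone stem-loop. Any base was allowed at the inner variable places of each arm and at the last place of the loop. The annotated transcripts of 41 of the 63 genes held it. Where it is missing, the annotated transcript may end before it. Capitals mark the paired stem and lower case the loop.
H1f2, chr13:23739512-23739527: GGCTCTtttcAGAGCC
H2ac6, chr13:23683477-23683492: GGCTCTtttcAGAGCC
H2bc12, chr13:22036300-22036315: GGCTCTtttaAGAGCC
H4c8, chr13:23531458-23531473: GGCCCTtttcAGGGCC
H4c9, chr13:22040966-22040981: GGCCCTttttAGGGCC
H4c2, chr13:23757366-23757381: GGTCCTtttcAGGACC
The stem letters differ between the H4 genes and the others shown here. The annotated transcript of H2ac6 goes on for 2010 bases after the stem-loop, that of H1f2 for 840 and that of H4c9 for 330. Those of H4c8, H2bc12 and H4c2 end 46, 30 and 28 bases after it.

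Taf8 itself, read first as a check of the labels, fell from 34.8 ± 2.75 CPM (counts corrected for library size, here and below as mean ± SD with n = 4 embryos per group) to 0.643 ± 0.149 CPM. That is 1.85% of the wild-type level. The libraries held 26312505 to 65523487 counts in genes, so that 3 counts, taken as the floor of detection, correspond to 0.0458 to 0.114 CPM. Wild-type embryos 1 to 3 carry the animal numbers 408.4, 408.5 and 408.6, whereas the numbers of the deleted embryos begin differently from these and from each other. Should the number before the point stand for a litter, then litter and genotype cannot be told apart. Of 10 markers of cerebral cortex, all were measured, 8 fell and Pax6 rose. Of all 15649 genes that passed the filter on low counts, 59.2% differed at a Benjamini-Hochberg adjusted p under 0.05 in edgeR's quasi-likelihood test, which is the meaning of "called" below. Of the same genes, 29.5% were called higher after Taf8 deletion and 29.6% lower.

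Summed over all 63 genes, the wild-type libraries held 59.2, 66.6, 59.3 and 76.2 CPM of histone RNA and the deleted libraries 317, 305, 302 and 289 CPM. Every deleted library lay above every wild-type library, and the means of 65.3 ± 8.04 and 303 ± 11.2 CPM differed 4.64-fold. With H2aw, H2bu2 and H4f16, histone genes outside the rule whose older names are of the Hist3h and Hist4h kind, the ratio was 2.84. Of the 63 genes, 47 passed the filter and 16 did not. Among the 47, 37 were called higher in Taf8-deleted cortex, 1 was called lower and 9 were not called, against 29.5% and 29.6% of all tested genes. The groups did not overlap in 36 of the 47 genes, 35 with the deleted libraries above and 1 with them below. Among all tested genes 53.6% did not overlap, 26.6% with the deleted libraries above and 27% with them below. The median log2 fold change was 1.51 for the histone genes and 0.01 for all tested genes. The cutoff of the filter was 0.265 CPM, and 18 of the 47 genes passed it only with the help of the deleted libraries, so these had to be higher there. In the other 29 genes all 4 wild-type libraries were above the cutoff. Of these, 20 were higher and 1 was lower, with a median of 1.29. The lower gene, H4c2, had 1 deleted library above the cutoff and passed only with the help of the wild-type libraries. The counts and medians by class, cluster, motif and 3′ end below include the 18 genes as well. At least 4-fold higher and called were 17 of the 47 genes, of which 8 were among the 29, and 1.25% of all tested genes. In cortex as a bulk tissue, more cells with histone RNA and more histone RNA per cell cannot be told apart.

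**Figure D1:**
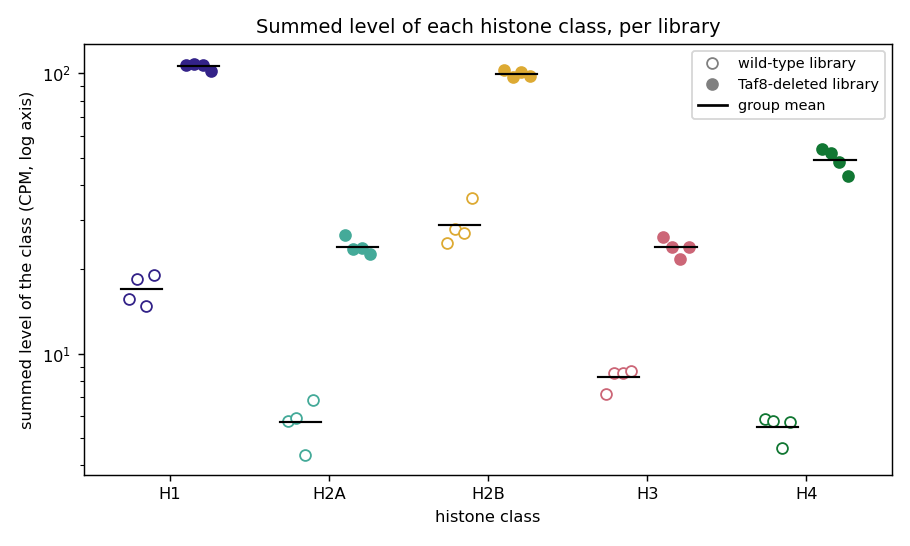
Summed level (CPM, log axis) of the histone genes of each class, with open points for the 4 wild-type libraries, filled points for the 4 Taf8-deleted libraries and lines for the group means. In all 5 classes every deleted library lies above every wild-type library, with the H4 sum going from 5.49 to 49.3 CPM and the H3 sum from 8.24 to 24.0 CPM.

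All 5 classes had a higher summed level in Taf8-deleted cortex, and the classes differed in size. H4 had the largest ratio, 8.97-fold, from 5.49 ± 0.582 to 49.3 ± 4.71 CPM. H1 followed at 6.25-fold, from 17 ± 2.08 to 106 ± 2.84 CPM, and H2A at 4.23-fold, from 5.71 ± 1.03 to 24.1 ± 1.63 CPM. H2B was 3.45-fold higher, from 28.9 ± 4.84 to 99.6 ± 2.65 CPM, and H3 was 2.91-fold higher, from 8.24 ± 0.719 to 24.0 ± 1.81 CPM. These ratios are sums over few genes and were not tested against each other. A single gene carried much of each sum. Without its most abundant gene in the deleted libraries, H4 was 4.90-fold higher, H1 3.38-fold, H2A 2.25-fold, H2B 2.27-fold and H3 2.48-fold. For H2B the most abundant gene in the wild-type libraries was another one, H2bc21, and without it H2B was 7.04-fold higher. The order of the classes by median log2 fold change per tested gene was another one: 2.12 for H2B, 2.01 for H1, 1.80 for H4, 1.45 for H3 and 1.31 for H2A. The place of H2B was not stable: its median was 1.43 without wild-type replicate 4, below 2.04 for H1, 1.75 for H4 and 1.56 for H3, and 0.97, the lowest of the 5 classes, without the filter on low counts.

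The make-up of the histone RNA differed between the groups. H2B genes gave 44.2% of the summed CPM in wild-type cortex and 32.9% in Taf8-deleted cortex, whereas H4 genes gave 8.42% and 16.3%. H1 went from 26.0% to 35.0%, H3 from 12.6% to 7.91% and H2A from 8.74% to 7.95%. The 5 most abundant genes held 63.3% of the sum in wild-type cortex and 70.9% in Taf8-deleted cortex. Since these genes differ in length, the shares above weigh genes of long counted length more. Levels of different genes are therefore compared here per kilobase of counted length. Summed on that scale, H4 went from 14.31 to 103.8 CPM per kb and H2B from 23.16 to 100.9. H1 went from 11.48 to 67.75, H3 from 11.48 to 29.93 and H2A from 10.56 to 28.85 CPM per kb. H2B thus had the largest sum in wild-type cortex, and H4 and H2B had the largest sums in Taf8-deleted cortex. Among single genes on that scale, H1f2 at 8.12, H2bc21 at 7.40, H2bc4 at 6.08 and H4c9 at 3.89 CPM per kb had the highest levels in wild-type cortex. In Taf8-deleted cortex they were H4c9 at 60.7, H2bc4 at 60.6, H1f2 at 58.7 and H4c8 at 19.0 CPM per kb. H2bc21 was then at 12.6 CPM per kb.

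**Figure D2:**
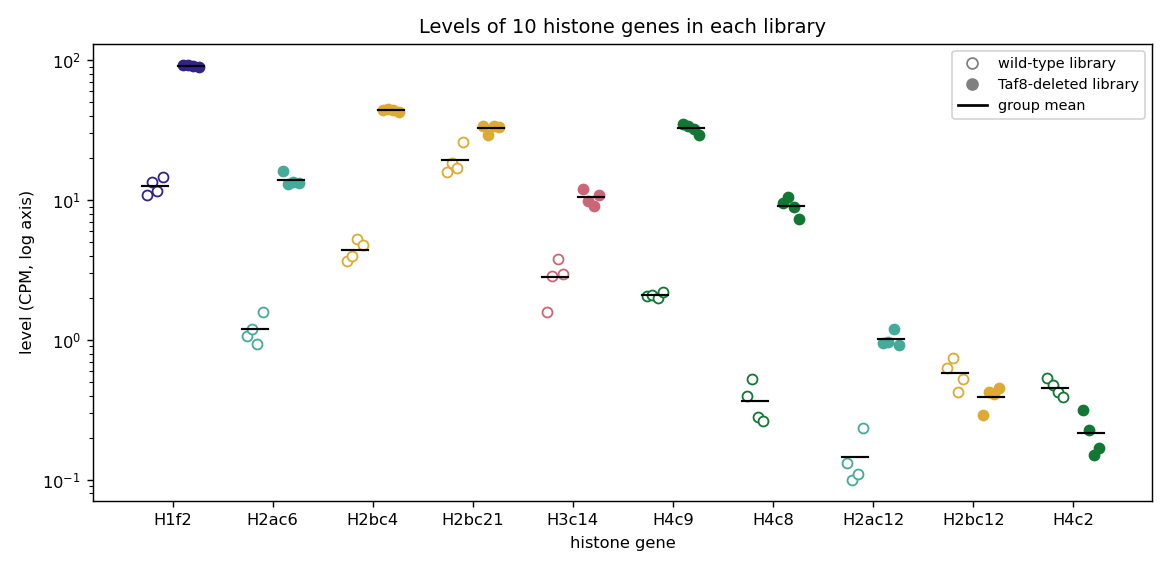
Level (CPM, log axis) of 10 histone genes in the 4 wild-type (open points) and 4 Taf8-deleted libraries (filled points), with lines for the group means. H1f2, H2bc4 and H4c9 sit between 29.2 and 93.1 CPM in every deleted library and between 2.00 and 14.7 CPM in every wild-type library.

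The linker histone genes rose together. All 5 tested H1 genes were called higher: H1f2, H1f4, H1f3, H1f1 and H1f5. H1f2 (Entrez gene 50708, chromosome 13, 23738807 to 23739531, plus strand, mm10), a somatic H1 subtype, had 10.9, 13.5, 11.6 and 14.7 CPM in the wild-type libraries and 92.5, 93.1, 91.5 and 89.3 CPM in the deleted libraries. It was 7.23-fold higher (log2 fold change 2.85, SE 0.08, adjusted p = 9.83e-09) and gave 74.6% of the H1 sum in wild-type and 86.2% in Taf8-deleted cortex. H1f4 rose from 1.70 ± 0.462 to 7.27 ± 0.831 CPM, or by 2.12 on the log2 scale (SE 0.19). H1f3 rose from 1.17 ± 0.205 to 4.69 ± 0.248 CPM, or by 2.01 (SE 0.14). H1f1 changed least among those whose groups did not overlap, at 1.29 (SE 0.19). H1f5, the only member of cluster 1 among the H1 genes, had overlapping groups at 0.962 ± 0.168 and 1.39 ± 0.308 CPM, and its call (log2 fold change 0.54, adjusted p = 0.0495) was lost under most alternatives. H1f6, the testis subtype, had 0 to 9 counts per library and was not tested.

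Among the H2A genes 7 of 11 tested were called higher and 4 were not called. Of those called, only H2ac6, H2ac21 and H2ac13 had all 4 wild-type libraries above the cutoff of the filter. H2ac6 (Entrez gene 319164, chromosome 13, 23683473 to 23683959, minus strand) had 1.06, 1.2, 0.938 and 1.58 CPM in the wild-type libraries and 16.1, 13, 13.5 and 13.3 CPM in the deleted libraries. It rose 11.8-fold (log2 fold change 3.56, SE 0.15, adjusted p = 5.14e-08) and went from 20.9% to 57.9% of the H2A sum. The other H2A genes stayed at or under 1.71 CPM in every library. H2ac12 rose from 0.145 ± 0.0628 to 1.01 ± 0.125 CPM (log2 fold change 2.81, SE 0.27) and H2ac7 from 0.214 ± 0.0673 to 1.27 ± 0.170 CPM (2.60, SE 0.24). H2ac18, H2ac10, H2ac21 and H2ac13 were called higher with log2 fold changes of 2.15, 1.34, 1.31 and 0.92. H2ac4 (0.55), H2ac8 (0.50), H2ac15 (0.26) and H2ac11 (-0.25) were not called, and their groups overlapped. H2ac11 had 0.361 ± 0.117 CPM in wild-type and 0.289 ± 0.114 CPM in Taf8-deleted cortex.

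Among the H2B genes 10 of 12 tested were called higher. Of those called, H2bc6, H2bc4, H2bc18, H2bc14 and H2bc21 had all 4 wild-type libraries above the cutoff of the filter, and the others did not. H2bc4 (Entrez gene 68024, chromosome 13, 23684199 to 23692480, plus strand) had 3.65, 3.99, 5.27 and 4.81 CPM in the wild-type libraries and 44.4, 45.2, 44.3 and 42.6 CPM in the deleted libraries, and rose 9.81-fold (log2 fold change 3.29, SE 0.10, adjusted p = 9.93e-09). H2bc6 had 0.722 to 0.867 CPM in wild-type and 8.5 to 9.83 CPM in Taf8-deleted cortex, and was 11.9-fold higher (log2 fold change 3.58, SE 0.11). The gene with the highest H2B level in wild-type cortex changed much less. H2bc21 (Entrez gene 319190, chromosome 3, 96221072 to 96223738, plus strand) had 16, 18.4, 17 and 26.2 CPM in the wild-type libraries and 34.2, 29.4, 34.2 and 33.6 CPM in the deleted libraries. It was 1.70-fold higher (log2 fold change 0.76, SE 0.14, adjusted p = 0.000669), and the groups did not overlap. H2bc21 gave 67.1% of the H2B sum in wild-type cortex, and H2bc4 gave the largest share, 44.3%, in Taf8-deleted cortex. H2bc22, H2bc23, H2bc15 and H2bc8 had log2 fold changes of 3.30, 3.06, 2.76 and 2.63, and H2bc18, H2bc3 and H2bc14 of 1.61, 0.97 and 0.87. The groups of H2bc3 overlapped, and its call was lost with DESeq2, without the filter and when wild-type replicate 2 or 3 or deleted replicate 2 or 3 was left out. H2bc9 (0.20) and H2bc12 (-0.53, adjusted p = 0.0923) were not called. H2bc12 had 0.630, 0.747, 0.422 and 0.525 CPM in the wild-type libraries and 0.290, 0.422, 0.411 and 0.453 CPM in the deleted libraries, so that the groups overlapped.

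Among the H3 genes 8 of 11 tested were called higher, and none reached the changes seen for the leading genes of the other classes. Of those called, only H3c11, H3c14 and H3c15 had all 4 wild-type libraries above the cutoff of the filter. H3c14 (Entrez gene 15077, chromosome 3, 96246685 to 96247348, plus strand) had 1.59, 2.89, 3.80 and 2.94 CPM in the wild-type libraries and 12.1, 9.90, 9.12 and 11 CPM in the deleted libraries. It was 3.67-fold higher (log2 fold change 1.88, SE 0.20, adjusted p = 2.07e-05) and gave 34.1% and 43.9% of the H3 sum. H3c4 had the largest log2 fold change, 2.35 (SE 0.23), at 0.408 ± 0.125 against 2.10 ± 0.312 CPM. H3c11 and H3c8 both had 1.99, H3c15 had 1.51, H3c2 had 1.45, H3c7 had 1.31 and H3c1 had 1.28. Not called were H3c6 (0.46), H3c3 (0.38) and H3c10 (-0.01). H3c10 had 0.486 ± 0.108 CPM in wild-type and 0.482 ± 0.0824 CPM in Taf8-deleted cortex. H3c3 had its deleted libraries, at 1.05 to 1.52 CPM, just above its wild-type libraries, at 0.907 to 1.05 CPM, with an adjusted p of 0.0632.

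The H4 genes encode the same or nearly the same protein, and their changes spread furthest. Of 8 tested, 7 were called higher and 1 lower. Of those called higher, only H4c9, H4c12, H4c11 and H4c4 had all 4 wild-type libraries above the cutoff of the filter. H4c8 (Entrez gene 69386, chromosome 13, 23531044 to 23531478, plus strand) had 0.398, 0.523, 0.281 and 0.263 CPM in the wild-type libraries and 9.52, 10.5, 9.01 and 7.28 CPM in the deleted libraries. Its 25.1-fold difference (log2 fold change 4.65, SE 0.21, adjusted p = 6.69e-08) was the largest of the 47 tested histone genes. H4c9 (Entrez gene 319158, chromosome 13, 22040960 to 22041362, minus strand) had 2.06, 2.09, 2.00 and 2.21 CPM against 35.1, 33.9, 32.2 and 29.2 CPM. It was 15.6-fold higher (log2 fold change 3.96, SE 0.08, adjusted p = 1.45e-09), and its share of the H4 sum went from 38.0% to 66.1%. H4c12, H4c1 and H4c11 followed with log2 fold changes of 2.04, 1.97 and 1.63. H4c14 (0.97, adjusted p = 0.0477, groups overlapping) and H4c4 (0.55, adjusted p = 0.0224) were close to the threshold. Both lost their calls with DESeq2, in the test against a 1.2-fold change and under further alternatives. H4c2 (Entrez gene 326620, chromosome 13, 23756937 to 23757386, plus strand) went the other way. It passed the filter only with the help of the wild-type libraries, so it had to be lower in the deleted ones. It had 0.531, 0.473, 0.422 and 0.394 CPM in the wild-type libraries and 0.316, 0.227, 0.150 and 0.170 CPM in the deleted libraries. All 4 deleted libraries lay below all 4 wild-type libraries, a 2.07-fold lower level (log2 fold change -1.05, SE 0.27, adjusted p = 0.00713) that rests on 15 to 27 counts per wild-type and 4 to 12 counts per deleted library.

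**Figure D3:**
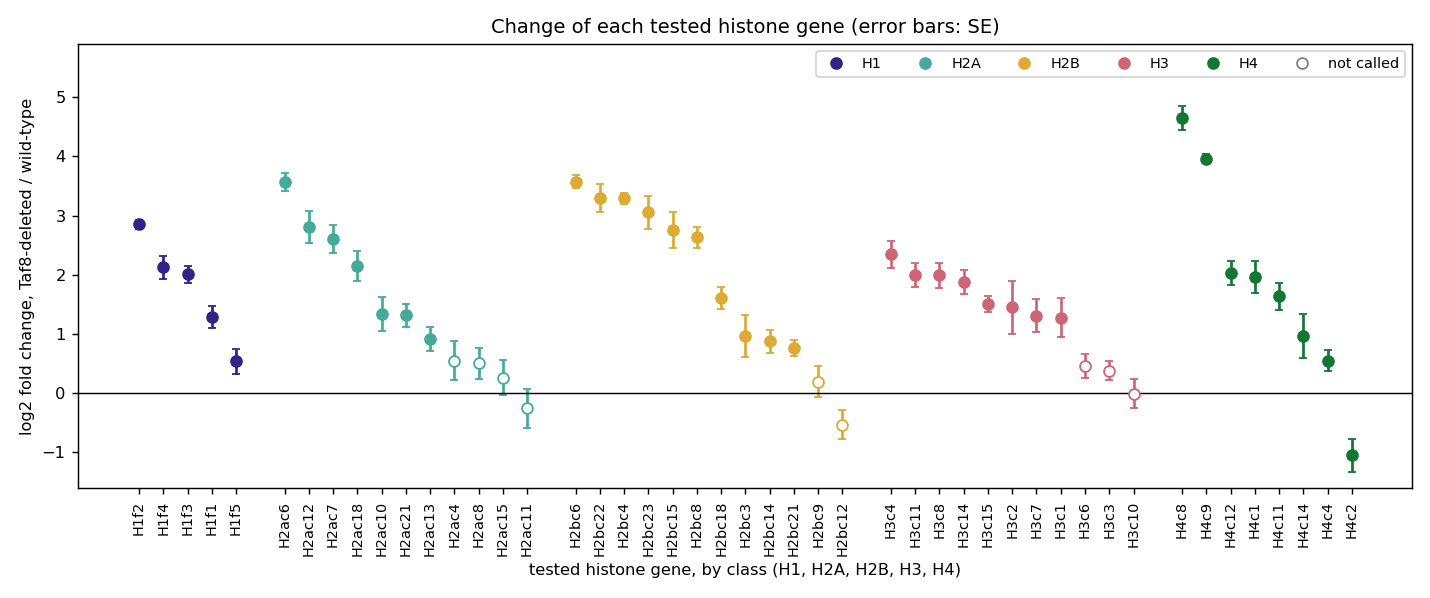
Log2 fold change (Taf8-deleted over wild-type, with SE) of the 47 tested histone genes, sorted within each class, with open symbols for genes that were not called. H4c8 at 4.65 and H4c9 at 3.96 are the highest points, H4c2 at -1.05 is the lowest, and H2bc21 sits at 0.76.

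The 16 genes that failed the filter added 1.42 CPM to the wild-type sum and 2.55 CPM to the Taf8-deleted sum. H2ac22, H2ac19, H2bc13, H2bc11, H2bc7, H4c18, H4c6 and H4c3 had at least 10 counts in 1 library or more. Of these, H2ac19, H4c18 and H4c3 had all deleted libraries above all wild-type libraries. H2bc13 had 0.166, 0.249, 0.328 and 0.263 CPM in the wild-type libraries and 0.105, 0.162, 0.187 and 0.170 CPM in the deleted libraries, which overlap. The other 8 were H1f6, H2ac1, H2ac20, H2ac23, H2ac24, H2bc1, H3c13 and H4c17. H2ac1, one of the testis-type H2A genes, had 0 counts in all 8 libraries, which allows up to 3 counts per library.

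The 63 genes fell into 3 clusters when neighbours less than 500 kb apart were joined. Cluster 1 held 22 genes on chromosome 13 (21715711 to 22043658, mm10), cluster 2 held 31 genes on chromosome 13 (23531044 to 23934913), and cluster 3 held 10 genes on chromosome 3 (96219885 to 96270192). Cluster 2 holds 5 of the 6 H1 genes. In cluster 1, 11 of 15 tested genes were called higher and 4 were not called. In cluster 2, 19 of 25 were higher, H4c2 was lower and 5 were not called. In cluster 3 all 7 tested genes were higher. The median log2 fold changes were 1.63, 1.45 and 1.51.

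The summed levels of the clusters were less alike than their medians. Cluster 2 went from 29.9 ± 2.72 to 197 ± 6.39 CPM, 6.60-fold, and cluster 1 from 9.44 ± 1.23 to 51.9 ± 4.78 CPM, 5.5-fold. Cluster 3 went from 25.9 ± 4.93 to 54.0 ± 3.12 CPM, 2.08-fold. In each cluster the deleted libraries lay above the wild-type libraries. Single genes weighed heavily here too: cluster 1 was 2.63-fold higher without H4c9, and cluster 3 was 3.21-fold higher without H2bc21, which held 74.7% of its wild-type sum and 60.9% of its Taf8-deleted sum. Within cluster 2 neighbouring genes differed. H4c2 lay between H3c2 and H4c1, which were called higher with log2 fold changes of 1.45 and 1.97. The H3c10 gene (-0.01) lay next to H2ac13 (0.92) at the start of cluster 1. Between the histone genes, 10 other named genes lay inside the clusters. Only the zinc finger gene Zfp184 (log2 fold change -0.12) and the iron regulator gene Hfe (0.68) had enough counts to be tested, and neither was called.

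**Figure D4:**
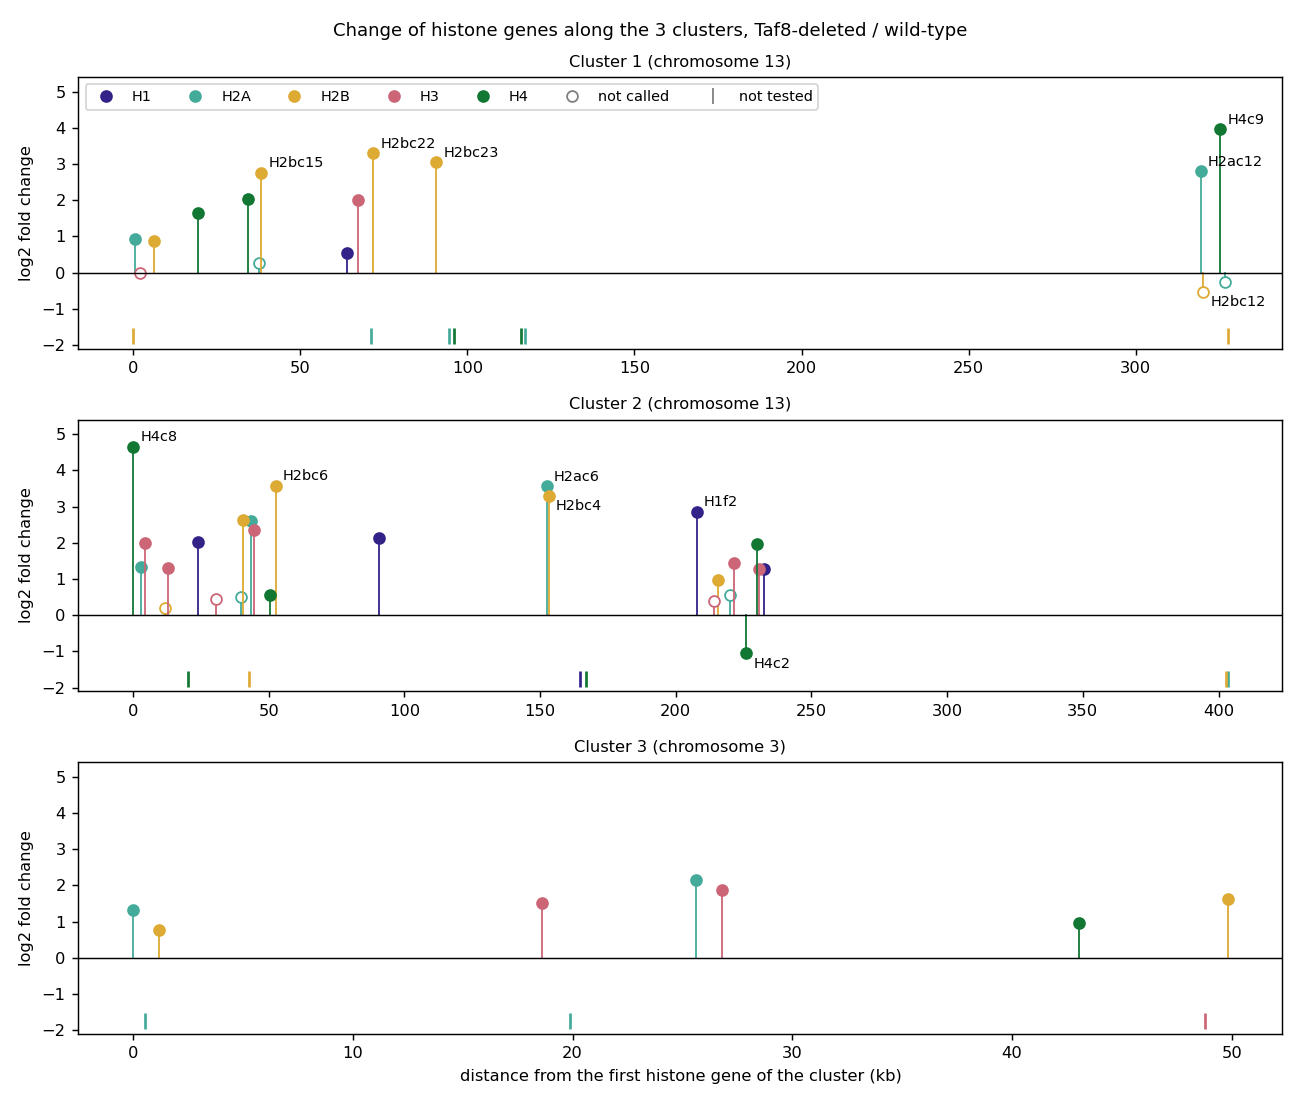
Log2 fold change (Taf8-deleted over wild-type) of each histone gene against its distance (kb) from the first histone gene of its cluster, with 1 panel per cluster, colours for the classes, open symbols for genes that were not called and ticks for those not tested. Genes with high changes and genes not called share a cluster: H4c9 at 3.96 and H2ac12 at 2.81 lie in the same stretch of cluster 1 as H2bc12 at -0.53. The levels of H2ac12 and H2bc12 are uncertain because they share sequence with other genes.

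Many H2A and H2B genes are transcribed away from each other from a short shared stretch. There were 11 such pairs with starts 164 to 281 bases apart. Both genes were called higher only in H2ac6 and H2bc4, at 3.56 and 3.29. In H2ac12 and H2bc12, whose starts are 178 bases apart, H2ac12 was called higher at 2.81 while H2bc12 was not called at -0.53. Their wild-type levels were 0.374 and 1.53 CPM per kb and their Taf8-deleted levels 2.61 and 1.03 CPM per kb. In H2ac8 and H2bc8, and in H2ac15 and H2bc15, it was the H2B gene that was called: 2.63 for H2bc8 beside 0.50 for H2ac8, and 2.76 for H2bc15 beside 0.26 for H2ac15. In the 7 other pairs at least 1 gene failed the filter. Differences between the genes of a pair were not tested. The called genes H2ac12, H2bc8 and H2bc15 passed the filter only with the help of the deleted libraries. Their partners H2bc12, H2ac8 and H2ac15 had all 4 wild-type libraries above the cutoff. Of the windows of 81 bases, the read length, in the transcript of H2ac12 only 10.2% were found in no other annotated gene, and 27.8% in that of H2bc12. The sources used here do not say how reads from shared stretches were counted, so the levels of this pair are uncertain. The same holds for H2bc15, with 32.2% of such windows.

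**Figure D5:**
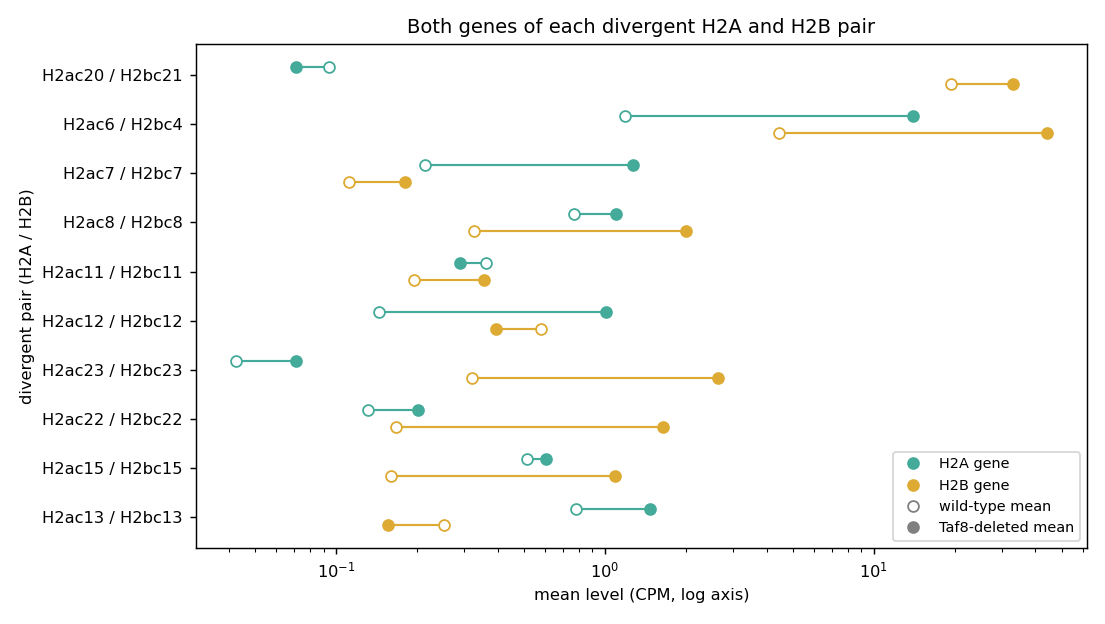
Mean level (CPM, log axis, n = 4 libraries per group) of the H2A and the H2B gene of each divergent pair except H2ac1 and H2bc1, with open symbols for wild-type and filled symbols for Taf8-deleted cortex, joined by a line; genes that failed the filter are drawn too. The lines of H2ac6 and H2bc4 both run up, from 1.19 to 14 CPM and from 4.43 to 44.1 CPM, while those of H2ac12 and H2bc12 run from 0.145 to 1.01 CPM and from 0.581 to 0.394 CPM.

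Promoters are shown for the 2 H4 genes with the largest rise, for the gene that fell, and for the H2ac12 and H2bc12 pair, whose windows share 277 bases. They are 300-base windows from RefSeq (GRCm38.p6), from 250 bases before to 50 after the annotated start. Such windows were found for 58 of the 63 genes. Capitals mark TATAA on the gene strand 45 to 15 bases before the start, and CCAAT, the octamer ATTTGCAT and GGTCCG on either strand. A base may count for more than 1 motif.
H4c9, chr13:22041313-22041612 (minus strand): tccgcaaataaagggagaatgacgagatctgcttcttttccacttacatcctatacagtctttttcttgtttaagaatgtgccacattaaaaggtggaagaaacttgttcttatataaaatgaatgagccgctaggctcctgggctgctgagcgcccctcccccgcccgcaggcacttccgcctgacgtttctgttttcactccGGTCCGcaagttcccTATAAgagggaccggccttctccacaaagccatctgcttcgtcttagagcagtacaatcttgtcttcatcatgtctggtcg
H4c8, chr13:23530794-23531093 (plus strand): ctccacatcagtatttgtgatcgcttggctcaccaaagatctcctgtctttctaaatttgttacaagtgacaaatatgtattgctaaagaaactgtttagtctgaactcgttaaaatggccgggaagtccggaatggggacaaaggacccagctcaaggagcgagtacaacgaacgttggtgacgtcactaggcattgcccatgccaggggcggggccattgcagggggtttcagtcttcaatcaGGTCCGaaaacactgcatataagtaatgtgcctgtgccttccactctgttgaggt
H4c2, chr13:23756687-23756986 (plus strand): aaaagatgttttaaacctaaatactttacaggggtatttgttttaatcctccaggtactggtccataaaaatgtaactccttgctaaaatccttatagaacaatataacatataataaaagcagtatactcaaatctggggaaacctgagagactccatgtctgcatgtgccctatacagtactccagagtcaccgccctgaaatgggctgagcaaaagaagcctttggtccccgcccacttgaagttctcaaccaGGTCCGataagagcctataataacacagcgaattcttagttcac
H2ac12, chr13:22035594-22035893 (minus strand): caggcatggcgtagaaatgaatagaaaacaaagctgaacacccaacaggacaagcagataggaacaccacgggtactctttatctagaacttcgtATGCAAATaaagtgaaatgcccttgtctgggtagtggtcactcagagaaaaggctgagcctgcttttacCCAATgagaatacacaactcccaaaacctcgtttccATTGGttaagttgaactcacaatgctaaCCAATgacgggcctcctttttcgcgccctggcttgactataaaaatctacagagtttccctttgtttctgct
The windows of H4c9, H4c8 and H4c2 all hold GGTCCG, and that of H4c9 holds TATAA in the searched stretch. The H2ac12 window holds CCAAT and the octamer, and because the H2bc12 window covers nearly the same bases, both genes have these matches.

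The motifs differed between the histone classes. CCAAT was in 86.2% of the 58 histone windows and in 37.9% of 27025 gene windows. It was in all windows of H1, H2A, H2B and H3 genes and in 3 of 11 H4 windows. The octamer was in 6 of 17 H2A and 6 of 14 H2B windows, in 0 of the other classes, and in 1.75% of all windows. GGTCCG, a motif chosen after the H4 windows were read, was in 10 of 11 H4 windows and in 8.39% of all windows. TATAA was in 34.5% of the histone windows at the searched distance and in 4.23% of all windows. Anywhere in the window on the gene strand it was in 67.2% and 18.2%, and the windows of H4c8, H4c2 and H2ac12 hold it after the annotated start, so the count depends on the annotated starts. With TATAA at the searched distance, 11 of 14 tested genes were higher (median log2 fold change 1.38). Without it, 21 of 28 were higher and 1 lower (median 1.92). Among the 58 genes with a window, tested or not, the summed levels with and without TATAA were 6.02-fold and 5.31-fold higher. H2bc4 and H2bc21, which have high levels, had no window and are left out of the splits by motif. With the octamer 6 of 9 were higher (median 0.97), and without it 26 of 33 were higher and 1 lower (median 1.88), with sums 4.6-fold and 5.64-fold higher. These splits are descriptions and were not tested.

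The annotated 3′ ends also split the genes. In 19 genes at least 1 annotated transcript ran 100 bases or more past the stem-loop. Of the 17 tested, 14 were called higher, with a median log2 fold change of 1.88, and their sum went from 28.0 ± 3.03 to 184 ± 6.76 CPM, 6.57-fold. In 22 genes every annotated transcript with the stem-loop ended within 100 bases of it. Of the 13 tested, 8 were higher and 1 lower, with a median of 0.97, and the sum was 3.59-fold higher, or 2.06-fold without H4c8. H2bc22, 1 of these genes, also has an annotated transcript without the stem-loop. Without H2bc22 7 of 12 were higher and 1 lower, with a median of 0.92. Of the 13 tested genes of this group, H2bc14, H4c2, H2ac11, H2bc12 and H3c3 had all 4 wild-type libraries above the cutoff of the filter. Of these H2bc14 was higher, H4c2 was lower and the others were not called. H4c2 and H2ac11 had only 1 and 3 deleted libraries above the cutoff. The other genes called higher in this group passed only with the help of the deleted libraries. In the group before it, only H2bc8, H3c4, H3c7 and H4c14 passed in that way. In the other 22 genes no annotated transcript held the stem-loop. Of the 17 tested, 15 were higher, with a median of 1.61 and a sum 3.13-fold higher, or 5.35-fold without H2bc21. H2ac10, H2ac12, H2bc15, H2bc23, H3c8 and H4c1 passed the filter only with the help of the deleted libraries. Annotated transcripts of H2ac13, H2bc15 and H4c12 have 393, 381 and 312 bases, while these genes span 448, 478 and 409 bases in RefSeq. This group can thus hold genes whose annotated transcript stops before the stem-loop. Genes with a counted length over 550 bases gave 49.0 of the 65.3 CPM in wild-type and 230 of the 303 CPM in Taf8-deleted cortex. Of these 18 genes 17 were tested, and 16 were higher with a median of 2.12. Of the 30 shorter genes tested 21 were higher with a median of 1.30. Gene-level counts cannot tell whether a read came from beyond the stem-loop. The counted lengths also differ from the annotated transcripts. For H2bc9, H3c4, H3c6, H4c11, H4c14 and H4c4, which belong to the first group, they were 312 to 411 bases. The annotated transcripts of these genes have 774 to 1679 bases. The split by 3′ end therefore follows the annotation and not the counted stretch.

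Histone genes are near-identical copies of each other. In 26 of the 63 genes fewer than 50% of the windows of 81 bases were found in no other annotated gene. The levels of single genes among these, such as H3c14 (0%), H2bc23 (4.39%) and H2ac12 (10.2%), are uncertain. Of the 17 tested genes of this kind 12 were higher, with a median log2 fold change of 1.51. Of the 30 tested genes with 50% or more such windows 25 were higher and 1 lower, with a median of 1.46. The leading genes H1f2 (93.7%), H2ac6 (89.6%), H2bc6 (86.6%), H4c9 (80.1%), H2bc4 (73.3%) and H4c8 (58.5%) were in this group, as was H2bc21 (100%). These shares are of the annotated transcript and not of the counted stretch. For H2bc4 the transcript has 1156 bases and the counted length is 728, and for H4c9 they are 727 and 537. For the other genes named in this group both lengths were nearly the same.

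Of the genes that act on histone RNA, 38 listed for histone transcription and 3′ processing were all tested: 9 were higher, 15 were lower and 14 were not called, with a median log2 fold change of -0.09. The share called was 63.2%, beside 59.2% of all tested genes. Their changes were small beside those of the histone genes. Slbp, which binds the stem-loop, was called higher at 0.13 (adjusted p = 0.0353), and Npat, the S-phase activator of histone transcription, was not called at 0.04. Of the U7 snRNP subunits that guide the cut, Lsm10 was higher at 0.39 and Lsm11 was lower at -0.27. Casp8ap2, which helps to assemble the cleavage complex, was lower at -0.21, and the exonuclease gene Eri1, which trims histone RNA ends, was lower at -0.23. Of the genes with the smallest adjusted p, the cap-binding gene Ncbp1 (0.29) and the polyadenylation factor genes Cpsf4 (0.65) and Cstf2 (0.32) rose. The exosome gene Exosc10 (-0.50), Nono (-0.42) and Cstf2t (-0.41), a paralogue of Cstf2, fell. Of the factors known to bind the motifs above, Pou2f1, which binds the octamer, was lower at -0.52. Of the CCAAT-binding subunits, Nfyb was lower at -0.26 and Nfyc at -0.38, while Nfya was not called at -0.03. Hinfp, an activator of H4 genes, was not called at -0.11.

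Of 36 S-phase genes tested, 4 were higher, 13 were lower and 19 were not called, with a median log2 fold change of -0.06. That is 11.1% higher and 36.1% lower, beside 29.5% and 29.6% of all tested genes. Gins1, a subunit of the replicative helicase complex, fell from 27.0 ± 2.08 to 13.1 ± 0.794 CPM. Pola1, the catalytic subunit of DNA polymerase alpha, and Tk1, thymidine kinase, fell by 0.44 and 0.64 on the log2 scale. The polymerase gene Pole (0.43) and the origin recognition gene Orc6 (0.20) rose. Of 20 genes of G2 and mitosis, 2 were higher, 6 were lower and 12 were not called, or 10% higher and 30% lower, with a median of -0.05. Ube2c fell by 0.86, Ccnb2 by 0.33 and Cdk1 by 0.32, while Cenpe (0.25) and Kif23 (0.18) rose.

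Of 13 tested histone genes listed as replication-independent variants, 5 were higher, 3 were lower and 5 were not called, with a median of 0.22. The share called, 61.5%, was close to the 59.2% of all tested genes. The 5 higher genes include H2aw (1.51) and H2bu2 (0.65), which have older Hist names and are described below. H3f3b, which encodes H3.3, rose from 645 ± 30.8 to 1100 ± 54.8 CPM (log2 fold change 0.77). Macroh2a2 (-0.37), the linker histone gene H1f0 (-0.44) and the centromeric H3 gene Cenpa (-0.40) fell. Of 18 histone chaperone genes 4 were higher, 6 were lower and 8 were not called, with a median of -0.09 and 55.6% called. Cabin1 (0.42), Ubn1 (0.30) and Nasp (0.16) rose, and Ssrp1 (-0.34), Rbbp7 (-0.21) and Nap1l1 (-0.27) fell.

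There were 3 genes with older names of the Hist3h and Hist4h kind whose present symbols the rule does not take. H2aw (chromosome 11, 58954685 to 58955192) rose from 124 ± 8.93 to 352 ± 18.7 CPM, 2.84-fold (adjusted p = 3.98e-08). On its own it held more counts than the 63 genes together in either group. Its neighbour H2bu2 rose from 93.7 ± 7.57 to 147 ± 6.37 CPM, 1.57-fold, and H4f16 on chromosome 6 from 0.248 ± 0.0732 to 2.07 ± 0.498 CPM, 8.54-fold. All 3 lie outside the clusters. H2aw and H2bu2 are also among the 5 higher variants counted above.

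Markers of other cell types that the dissected tissue could hold are given as measured, beside the 29.5% higher and 29.6% lower among all tested genes. Of 12 endothelial and pericyte markers all 12 were higher, with summed levels of 229 to 242 CPM in wild-type and 278 to 351 CPM in deleted libraries. Of 12 meningeal fibroblast markers 11 were tested and 6 were higher, with sums of 24.5 to 50.5 and 37.6 to 154 CPM. Of 12 microglia and macrophage markers 6 were higher and 1 lower, with sums of 68.5 to 79.4 and 76.0 to 97.8 CPM. Of 14 red blood cell markers 11 were tested, 6 were higher and 1 lower, with sums of 260 to 339 and 351 to 473 CPM. Of 8 choroid plexus markers 1 was higher, with sums of 17.9 to 424 and 15.6 to 1256 CPM. No marker measured was at 0 in all libraries. Their part in the histone levels was not tested. The 2 libraries with the highest choroid plexus sums were wild-type replicate 4 and deleted replicate 1. Without the first 38 histone genes were higher and 1 lower, and without the second 34 were higher and 1 lower.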

How the data were processed

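Polyadenylated RNA of embryonic mouse cerebral cortex was read from 4 wild-type and 4 Taf8-deleted embryos. The deposited values are read counts per Entrez gene with a gene length. Subread 1.5.0, featureCounts and mm10 are named in the submitters' processing notes. The sources used here do not give the gene annotation, the strand setting or the handling of multi-mapping reads.

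The 15649 genes that passed filterByExpr with a minimum count of 10 were fitted by group in R 4.3.3 with the quasi-likelihood method of edgeR 4.0.16 after TMM scaling, with Benjamini-Hochberg adjustment over all genes tested and a threshold of 0.05. Standard errors were derived from the log2 fold change and its F statistic. CPM were computed with the scaled library sizes. Symbols came from RefSeq by gene ID. Symbols that match the rule numbered 65 in RefSeq, and 2 of them, H2ac14 and H2ac5-ps, were not analysed here. Promoters were taken from RefSeq (GRCm38.p6), and transcripts, strands and 3′ ends from GENCODE vM21.

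The members and lists were chosen with earlier results of these data known. Named by rule were, per class, the 2 highest levels per kb, the 3 largest called changes without overlap, called falls, uncalled genes, and the 3 smallest adjusted p values per list and direction. 1 gene that the rule takes is not reported here. Other genes were named after their values were seen. The edgeR steps were tested on simulated counts. Alternatives were other scalings (library size alone, upper quartile, relative log expression), DESeq2 1.42.0, limma 3.58.1 with voom, a filter of 1 CPM in 4 libraries or none, a test against a 1.2-fold change, a threshold of 0.01, a replicate block, the single-sample counts, and each library left out.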

Additional observations from a re-analysis of the deposited data

Results flagged for a closer look

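In 7 of 74 groups of 4 libraries, 1 library stood apart from the other 3 by Dixon's criterion, the gap to the nearest library over the whole range. Chance gives this in about 1 in 20 groups. The summed H3 level was 7.17 CPM in wild-type replicate 1 and 8.54 to 8.69 CPM in the other wild-type libraries. The summed H4 level was 4.63 CPM in wild-type replicate 3, against 5.70 to 5.87 CPM, and the sum of cluster 1 was 7.61 CPM in that library, against 9.85 to 10.2 CPM. H2bc6 was at 0.867 CPM in wild-type replicate 4, against 0.722 to 0.735 CPM. H2ac6 was at 16.1 CPM in deleted replicate 1, against 13 to 13.5 CPM. H2bc21 was at 29.4 CPM in deleted replicate 2, against 33.6 to 34.2 CPM. H3c10 was at 0.358 CPM in deleted replicate 4, against 0.519 to 0.527 CPM. In all of these groups except those of H3c10, every deleted library still lay above every wild-type library.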

How the results depend on the processing

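With at least 1 CPM in 4 libraries, which leaves 25 of the histone genes, 24 were higher and 0 lower, and H4c2 was not tested. The medians were then 2.05 over all, 1.77 for H2A, 3.07 for H2B, 1.94 for H3 and 3.01 for H4. Without the filter the medians were 1.38 over all, 1.77 for H1 and 0.97 for H2B. With H2aw, H2bu2 and H4f16 added, an alternative chosen after seeing the data, the summed ratio was 2.84 and the H2B median 1.61. The other scalings gave 36 to 38 higher, and DESeq2 and the 1.2-fold test gave 33 each. A threshold of 0.01 gave 32. The calls lost were H1f5, H2bc3, H4c14, H4c4 and, at the threshold of 0.01 and without wild-type replicate 3, H3c2. Leaving out each library gave 33 to 38 higher, 1 to 2 lower, medians of 1.47 to 1.64 over all, 1.88 to 2.08 for H1, 1.11 to 1.39 for H2A, 1.43 to 2.16 for H2B, 1.26 to 1.56 for H3 and 1.47 to 1.84 for H4, and a summed ratio of 4.50 to 4.92. The second lower gene, without wild-type replicate 3, was H2bc12, with a log2 fold change of -0.68. H2ac8 was called at 0.70 without wild-type replicate 4, and H3c6 at 0.56 without deleted replicate 4. H3c3 was called with library size alone, upper quartile and the 1 CPM filter. H3c10, never called, turned positive: 0.032 with library size alone, 0.020 with upper quartile, 0.01 with voom, and -0.17 to 0.12 when each library was left out.

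Same-numbered libraries come from different animals and did not deviate together (correlations -0.285, 0.014, -0.067 and -0.464). With the replicate block 33 genes were higher and 1 lower, with a median of 1.5. Low wild-type counts and poly(A) selection limit the precision for single genes.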
